A study of Mus musculus with 60 samples.

Results

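Chemokine ligands are small proteins that direct the movement of leukocytes. The family was taken as every protein-coding gene whose symbol begins with Ccl, Cxcl, Cx3cl or Xcl followed by a number and at most 1 letter, which gave 37 of 52636 gene identifiers (21819 of them protein-coding). The rule used names and no measured values. Cxcl11 met the pattern of letters and is annotated as a polymorphic pseudogene, so it was not a member. Of the 37 genes, 12 lie on chromosome 11 and 10 on chromosome 5 (GRCm38), where the family has expanded in clusters.

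Chemokines act through G protein-coupled receptors on the cells they attract, and a gradient of ligand held on tissue matrix gives the direction of movement. Homeostatic members are made constantly and place lymphocytes in lymphoid organs or hold stem cells in the marrow. Inflammatory members are switched on by interferons, tumour necrosis factor and other alarm signals, and bring in monocytes, neutrophils and T cells. Others are made by epithelia at body surfaces.

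Read counts per gene were available for 60 bulk RNA-seq libraries, 10 each from lung, spleen, skin, skeletal muscle, liver and kidney of mice. Each set of 10 held 4 libraries of young animals (aged 3 months, 2 of each sex), 3 from untreated old mice and 3 from induced old mice (both 26 months, 2 male and 1 female). The strain label was the same in all groups: C57BL/6, heterozygous for 4F and for R26::rtTA, a doxycycline-driven cassette of 4 reprogramming factors with its transactivator. The young and the untreated old mice had no treatment. The induced old mice drank doxycycline at 1 mg/ml in cycles of 2 days on and 5 days off for 1 month from the age of 25 months. No group took the drug without the cassette, so drug and factors cannot be told apart. The study's purpose, as far as the labels show it, was to set old tissue with cycles of factor induction beside old and young tissue without it.

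Libraries held 16.7 to 50.7 M counts (M, mega, with a median of 28.4). The labels do not state which libraries came from separate animals, so p-values measure only the spread between these samples. In bulk tissue, fewer cells of a type and less RNA per cell cannot be told apart. Pou5f1, the cassette factor that is silent in most adult tissues, served as the check of the induced label: in kidney it read 7.01, 0.0544 and 0.0276 CPM (counts scaled to a common library total, with edgeR's TMM scaling) in the 3 induced libraries against 0 to 0.0412 in the untreated ones. In skin it read 3.69, 0.116 and 0.0362 CPM in the induced libraries against 0 to 0.0405. In all 6 tissues induced 1 was the highest induced library, and induced 2 and 3 read between 0 and 0.261 CPM. The label of those libraries thus has no check from this transcript. The other cassette genes, Sox2, Klf4 and Myc, are also transcribed from their own loci, and Klf4 fell with age in lung, with a log2 change of -1.41 (SE 0.23, adjusted p in edgeR = 0.00908). Some libraries held transcripts of another tissue. The summed level of 6 hepatocyte markers was 324 and 779.6 CPM in lung untreated 1 and 2 against 20.4 in untreated 3, and 8975 CPM in skin untreated 3. In spleen untreated 2 the pancreas marker sum was 1453 CPM, and at most 33.5 in the other spleen libraries. Spleen young 1 held 48.5 CPM of kidney markers. Lung untreated 1 also held 343.7 CPM of skin markers and 189 CPM of skeletal muscle markers. Skin untreated 3 also held 311.9 CPM of pancreas markers, and skin young 2 held 299.8 CPM of hepatocyte markers. Lung libraries of young mice held 299 to 1088 CPM of 3 heart muscle markers and those of old mice at most 91.8. In skin, skeletal muscle markers summed to 2886 CPM in induced 1 and to between 26780 and 153900 CPM in the other libraries. In liver young 4 the sum of 6 kidney markers was 174 CPM and that of 6 skeletal muscle markers 46.4 CPM, against at most 1.38 and 1.40 in the other livers. Fits that leave out the named lung, liver and muscle libraries are given with their tissues. Fits without spleen untreated 2 and young 1, and without skin untreated 2 and 3, were also run, and their counts are not given here. All 4 young lungs held heart transcripts and all skin libraries muscle transcripts, so no fit could set these transcripts apart, and their part in the results was not tested.

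The sequences upstream of Cxcl9, Cxcl10 and Ccl8 are shown because these 3 ligands had the highest age estimates among those that held in lung whichever library was left out. They are the 250 bases before the annotated start, read 5′ to 3′ on the gene's strand from RefSeq on GRCm38.p6, at chr5:92328080-92328329 (minus strand, Cxcl9), chr5:92348890-92349139 (minus strand, Cxcl10) and chr11:82114935-82115184 (plus strand, Ccl8). Capitals mark matches to 2 motifs searched on both strands: the interferon response element (TTTC, any 2 bases, TTTC) and the kappa B site (GGGA, any 4 bases, CC).
Cxcl9: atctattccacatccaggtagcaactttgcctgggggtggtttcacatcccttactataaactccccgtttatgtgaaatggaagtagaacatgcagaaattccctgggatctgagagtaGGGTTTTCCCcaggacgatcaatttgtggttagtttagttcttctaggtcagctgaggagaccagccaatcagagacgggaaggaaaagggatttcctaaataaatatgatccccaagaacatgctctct
Cxcl10: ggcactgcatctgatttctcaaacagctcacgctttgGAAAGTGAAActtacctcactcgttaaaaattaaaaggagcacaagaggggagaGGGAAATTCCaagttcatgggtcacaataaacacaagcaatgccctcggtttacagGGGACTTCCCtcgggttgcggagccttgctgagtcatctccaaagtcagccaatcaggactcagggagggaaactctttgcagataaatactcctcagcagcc
Ccl8: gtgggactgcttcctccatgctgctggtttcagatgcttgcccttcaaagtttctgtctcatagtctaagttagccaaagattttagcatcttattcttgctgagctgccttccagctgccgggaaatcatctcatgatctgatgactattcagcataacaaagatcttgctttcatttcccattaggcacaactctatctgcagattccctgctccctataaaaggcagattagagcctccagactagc
Cxcl9 held 1 kappa B match, at 130 to 121 bases before the start. Cxcl10 held an interferon response element at 213 to 204 bases and kappa B matches at 159 to 150 and 103 to 94 bases before the start. In Ccl8 none of these letters occurred. The promoter table had an entry for 27 of the 37 members, with a window of 300 bases that runs 50 bases past the start. A kappa B match occurred in 12 of these 27 (44.4%) and in the promoters of 22.9% of all 27025 genes of the table. An interferon response element occurred in 3 of 27 (11.1%) against 3.99% of genes. These matches are descriptions of the letters and not sites of binding.

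The leading ligands of young mice depended on the tissue. Levels between genes are compared as CPM per kilobase of exon, and levels across tissues come from separately scaled libraries. In lung the leading transcript was Cxcl15 (lungkine), a neutrophil attractant of lung epithelium, at 462 ± 88.4 CPM per kb (SD, n = 4). It made up 51.4% of all chemokine ligand CPM there and read 0.402 ± 0.671 CPM in its next highest tissue, skin, against 984 ± 188 CPM in lung. Ccl6, a macrophage and neutrophil product that binds CCR1, followed in lung at 101 ± 6.51 CPM per kb, and then Cxcl14, an epithelial and stromal ligand, at 74.3 ± 14.7. In spleen the order was Cxcl13, which draws B cells into follicles through CXCR5, at 199.7 ± 39.1 CPM per kb, then Cxcl12, the stromal ligand of CXCR4, at 100.2 ± 38.5, and Ccl5, a T cell and NK cell product, at 99.4 ± 6.86. Cxcl12 and Ccl5 differed there by less than their spread. In skin Ccl8, a monocyte attractant, led at 229 ± 62.3 CPM per kb, followed by Ccl6 at 128 ± 68.1 and the eosinophil attractant Ccl11 at 75.3 ± 23.7.

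Kidney and liver were led by Cxcl12, at 39 ± 10.4 and 51.4 ± 12.2 CPM per kb. In kidney the membrane-bound Cx3cl1, ligand of CX3CR1, followed at 27.4 ± 2.65 and Cxcl14 at 15.6 ± 6.74. In liver Ccl9, a CCR1 ligand of the myeloid lineage, followed at 28.2 ± 6.53 and Cxcl9, an interferon-gamma-induced ligand of CXCR3, at 5.86 ± 3.13. In muscle the order was Cxcl14 at 51.1 ± 12.4 CPM per kb, Ccl11 at 34.6 ± 5.55 and Cxcl12 at 19.3 ± 2.73. Of the members, 12 had their highest young mean in spleen, 10 in skin and 9 in lung. The spleen count includes Ccl21a and Ccl26, which passed the low-count filter in no tissue. Ccl28, the ligand that draws IgA-secreting cells to mucosa, was highest in kidney, where the 4 young libraries read 66.1, 33.8, 4.66 and 25.7 CPM. Relative to its mean this spread was wider than that of the other leading kidney ligands. Cxcl17, a mucosal ligand, read 40.02 ± 4.37 CPM in lung and at most 0.0683 CPM on average elsewhere.

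**Figure D1:**
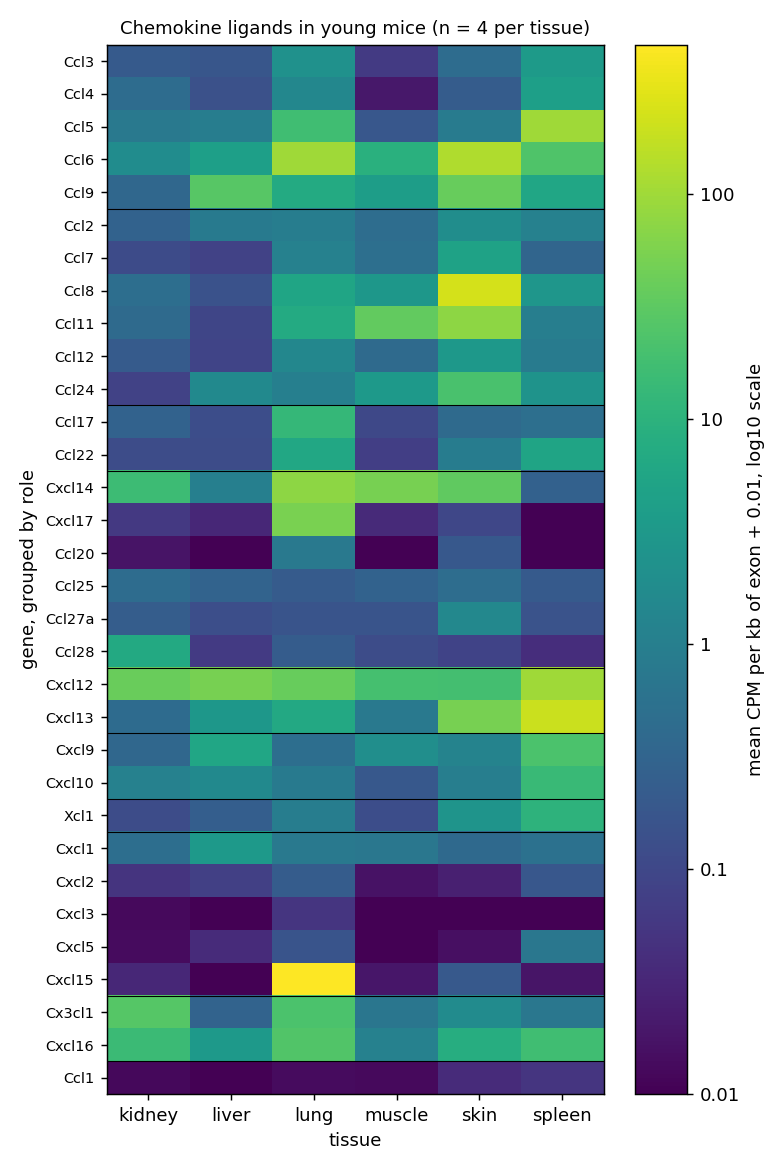
Mean level of the chemokine ligands in young mice by tissue (n = 4 libraries per tissue), in CPM per kilobase of exon on a log colour scale. Cxcl15 in lung, Ccl8 in skin and Cxcl13 in spleen lead their tissues, and Cxcl12 leads kidney and liver.

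Not every member could be tested. Ccl19, Ccl21a, Ccl21b, Ccl26 and Ccl27b passed the low-count filter in no tissue, with at most 1 count in any library, and a count of 0 allows up to 0.0592 to 0.18 CPM depending on depth. Of the 50-base stretches of Ccl21b 100% occur in other annotated genes, and the share was 98.1% for Ccl27b, 71.6% for Ccl21a, 52% for Ccl19 and 45% for Ccl27a. How reads that match several genes were counted is not given in the sources used here, so the levels of these lymphoid and skin ligands are uncertain. Of the other members, 18 were tested in all 6 tissues, 4 in 5, 3 in 4, 1 in 3, 3 in 2 and 3 in 1. Cxcl16 overlaps Zmynd15 on the opposite strand by 552 exonic bases, Ccl25 overlaps Elavl1 by 204, Cxcl10 overlaps Art3 by 133, Xcl1 overlaps Gm20743 by 98 and Ccl27a overlaps Il11ra1 by 8. The strand setting of the counting is not given, so reads in these overlaps may belong to either gene.

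The first comparison set untreated old against young mice. In lung, 16 of 32 tested ligands rose, 4 fell and 12 did not pass, and those that rose spanned the interferon-induced, monocyte-attracting, T cell and neutrophil-attracting groups. Of all genes tested in lung 17.7% were called in either direction, 8.37% higher and 9.35% lower. The groups did not overlap for 21 of the 32 ligands, 19 higher and 2 lower in old mice, against 36.6% of all genes. The median log2 difference of the 32 was 2.04, beside 0.02 over all genes. Changes are on the log2 scale, and calls here and below are adjusted p values under 0.05 from edgeR's quasi-likelihood test over all genes of the tissue, with Benjamini-Hochberg adjustment.

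Among the CXCR3 ligands, which attract activated T cells, Cxcl9 read 1.7, 2.23, 1.32 and 0.475 CPM in the young lungs and 180.3, 202 and 31.7 CPM in untreated old 1 to 3. Every old library exceeded every young one, and untreated 3 was the lowest of the old. The log2 change was 6.44 (SE 1.05, adjusted p in edgeR = 0.00855). Cxcl10, its partner on the same receptor, read 1.67, 2.23, 2.25 and 0.913 CPM in young and 29.5, 42.3 and 9.15 CPM in untreated old libraries, a log2 change of 3.71 (SE 0.61, adjusted p in edgeR = 0.00853). Both groups were again separate, with the same order among the old libraries.

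The CCR2 and CCR3 ligands draw monocytes and eosinophils. Ccl8 read 2.97, 3.88, 3.26 and 1.24 CPM in young and 158, 185 and 27.4 CPM in untreated old lungs, with no overlap. Its log2 change was 5.32 (SE 0.93, adjusted p in edgeR = 0.0106). Ccl12, a mouse monocyte attractant, rose by 3.51 (SE 0.66, adjusted p in edgeR = 0.0124). It ranged over 0.365 to 1.17 CPM in young and 3.56 to 11.7 CPM in untreated old lungs. Ccl7 rose by 3.65 (SE 0.88) and Ccl2, the main CCR2 ligand, by 3.50 (SE 1.00). For Ccl2 the old libraries read 6.82, 36.1 and 1.89 CPM, so that untreated 2 stood far above the others, while the young read 0.475 to 1.42. Ccl11, the eosinophil attractant, fell by 0.80 (SE 0.23), with 1 old library above the lowest young one.

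Among the ligands made by T cells and macrophages, Ccl5 read 16.1, 14.5, 24.7 and 9.31 CPM in young and 194, 222 and 53.5 CPM in untreated old lungs, a log2 change of 3.33 (SE 0.68, adjusted p in edgeR = 0.016). The lowest old library was more than the highest young one. Ccl3 and Ccl4 rose by 2.91 (SE 0.74) and 3.46 (SE 0.75), and Ccl9 by 2.14 (SE 0.46). Ccl6 read 167 to 196 CPM in young and 297, 697 and 1098 CPM in untreated old libraries, with no overlap, and its log2 difference of 1.94 (SE 0.63, adjusted p in edgeR = 0.0655) did not pass.

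The neutrophil attractants of CXCR2 were low in young lung apart from Cxcl15. Cxcl5, an epithelial product, read 0.0385 to 0.494 CPM in young and 5.58, 1.1 and 4.17 CPM in untreated old libraries and rose by 3.67 (SE 0.96). Cxcl3 rose by 2.68 (SE 0.64), with 0.11 to 0.185 CPM in young and 0.246 to 2.5 CPM in old lungs. Cxcl15, which was high in all lungs, read 854 to 1263 CPM in young and 1471, 1252 and 3506 CPM in untreated old libraries, and its log2 difference of 1.07 (SE 0.32, adjusted p in edgeR = 0.0515) did not pass.

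Cxcl13, the B cell attractant, read 13, 7.04, 4.68 and 5.37 CPM in young and 107, 189 and 26 CPM in untreated old lungs and rose by 3.72 (SE 0.78, adjusted p in edgeR = 0.0173). Ccl20, the CCR6 ligand of epithelia, rose by 2.40 (SE 0.52), Xcl1, which attracts cross-presenting dendritic cells, by 1.91 (SE 0.54), and Cxcl16, a membrane-bound ligand of CXCR6, by 0.51 (SE 0.14). In the other direction, Cxcl14 read 146, 116, 112 and 169 CPM in young and 76.2, 48.1 and 38.5 CPM in untreated old lungs, a log2 change of -1.33 (SE 0.26, adjusted p in edgeR = 0.0139). These groups did not overlap, and neither did those of Cx3cl1, which is made by endothelium and fell by 0.80 (SE 0.21). Cxcl12 fell by 0.55 (SE 0.16), with 1 old library above the lowest young one.

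The calls on Cxcl9, Cxcl10, Ccl8, Ccl12 and Cxcl14 held in all 10 fits that each left out 1 library. The number of ligands called in lung was 5 without young 2, 6 without young 1, 10 without young 4, 11 without young 3 and 13 without untreated 1. Without untreated 1 and 2 together, which held hepatocyte transcripts, the old group has 1 library, whose spread is taken from the other groups, and 3 ligands were called. Cxcl14 and Cxcl3 kept their calls there. Cxcl9, Cxcl10, Ccl8 and Ccl12 lost them, with log2 estimates of 4.34, 2.46, 3.08 and 1.99 and adjusted p values in edgeR of 0.119, 0.122, 0.157 and 0.206. Both libraries also had the highest Cxcl9, Cxcl10, Ccl8 and Ccl5 of the lung set. Markers of leukocytes also rose from young to untreated old lungs. Of 12 macrophage markers 7 rose, with a summed level of 5378 to 6481 CPM in young lungs. The sum was 9098, 11130 and 14750 CPM in untreated 1 to 3. Untreated 3, with the highest macrophage sum of the old lungs, had their lowest Cxcl9, Cxcl10, Ccl8 and Ccl5. Its neutrophil and T and NK cell sums were the lowest of the old lungs. Of 12 neutrophil markers 6 rose (sums of 173 to 418 CPM in young and 1011 to 1535 in old). Of 14 T and NK cell markers 5 rose (sums of 88.7 to 180 CPM in young and 191 to 563 in old), while 5 of 8 endothelial markers fell. All 4 adipocyte markers fell (sums of 56.1 to 434 CPM in young and 23.9 to 50.9 in old). No macrophage, neutrophil or T and NK cell marker was at 0 in all lung libraries. Their part in the result was not tested.

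**Figure D2:**
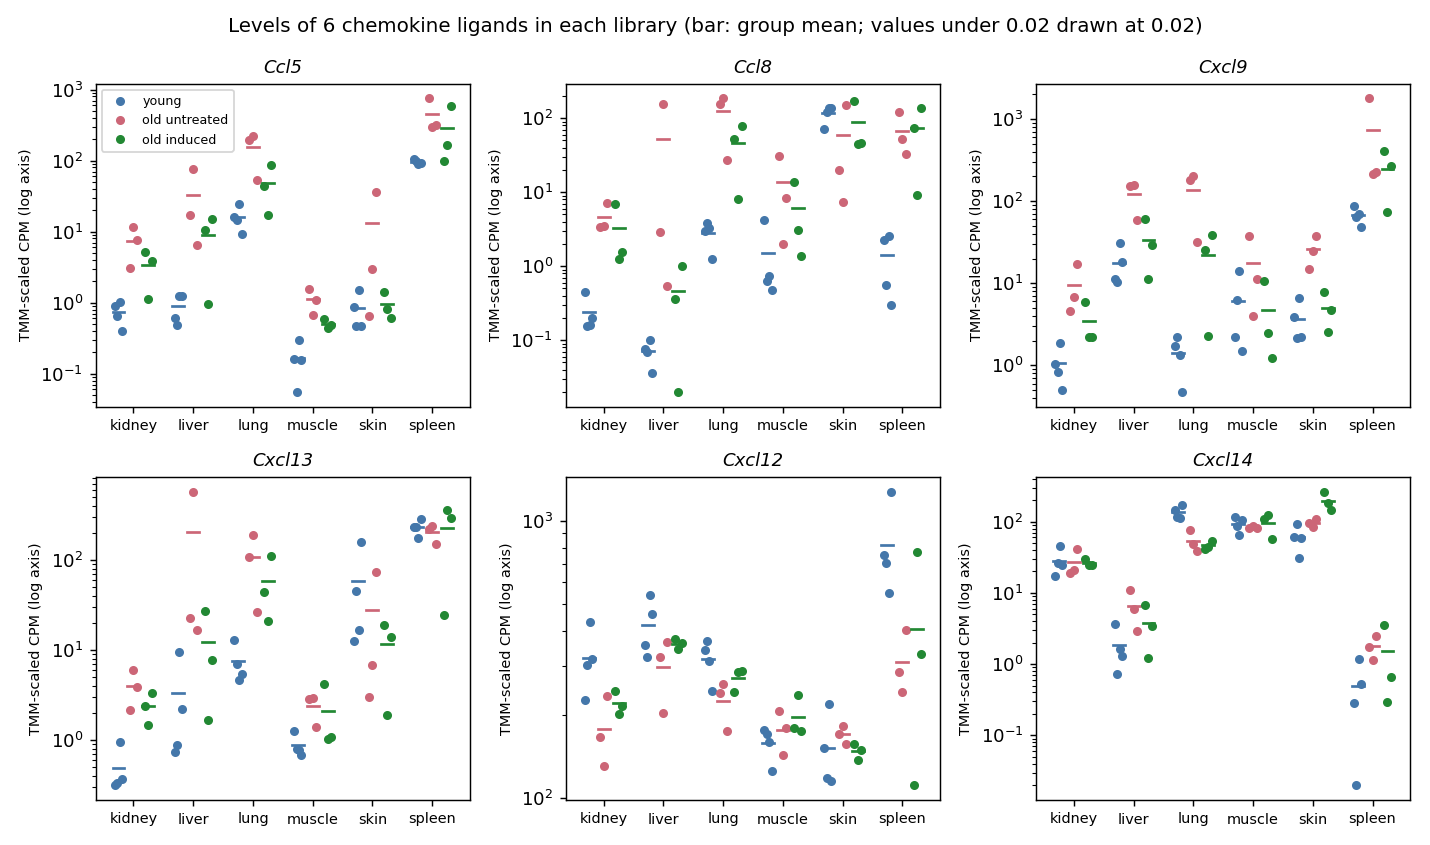
TMM-scaled CPM of Ccl5, Ccl8, Cxcl9, Cxcl13, Cxcl12 and Cxcl14 in each library (log axis), by tissue and group: young (n = 4), old untreated (n = 3) and old induced (n = 3), with each point 1 library and the bar the group mean (values under 0.02 are drawn at 0.02). In lung the old untreated points of Cxcl9, Ccl8 and Ccl5 all lie above the young ones, and those of Cxcl14 all lie below.

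In kidney, 8 of 23 tested ligands rose, 1 fell and 14 did not pass, where 6.12% of all genes were called (3.71% higher, 2.41% lower). The rising ligands were low transcripts of leukocyte attraction and the falling one was the leading kidney ligand, Cxcl12. Cxcl13 read 0.314, 0.332, 0.95 and 0.365 CPM in young and 2.17, 5.92 and 3.83 CPM in untreated old kidneys, a log2 change of 3.16 (SE 0.45, adjusted p in edgeR = 0.0111). Ccl8 read 0.454, 0.155, 0.162 and 0.197 CPM in young and 3.38, 3.46 and 7.17 CPM in old kidneys, a log2 change of 4.33 (SE 0.73, adjusted p in edgeR = 0.0171). For both genes the groups did not overlap, as for 12 of the 23 ligands, all higher in old mice, against 14.4% of all genes. Cxcl9 rose by 3.14 (SE 0.56), Ccl5 by 3.33 (SE 0.59), Ccl12 by 3.38 (SE 0.81), Ccl3 by 2.13 (SE 0.48), Ccl9 by 2.01 (SE 0.40) and Ccl6 by 1.57 (SE 0.30). The median log2 difference of the 23 was 1.57, beside -0.00049 over all genes.

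Cxcl12 read 226, 301, 432 and 316 CPM in young and 166, 131 and 234 CPM in untreated old kidneys, with an overlap of 1 old library, and fell by 0.79 (SE 0.18, edgeR adjusted p = 0.0399). Per kilobase it read 21.7 ± 6.42 CPM in the old kidneys, where Cx3cl1 read 25.9 ± 3.77 and Cxcl16 21.9 ± 1.36 CPM (SD, n = 3). Calls in kidney depended on single libraries: 0 ligands were called without young 2, 1 without untreated 3, 2 without young 1, 3 without untreated 2 and 4 without young 4, and 2 without the sex term. Of 12 macrophage markers 10 rose, with sums of 257 to 316 CPM in young and 364 to 669 CPM in untreated old kidneys, and 8 of 14 T and NK cell markers rose (sums of 4.26 to 9.43 CPM in young and 10.6 to 37.8 in old). The part of these cells in the result was not tested.

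In liver, 6 of 25 tested ligands rose, none fell and 19 did not pass, against 7.91% of all genes in either direction and 5.37% higher. Ccl6 read 6.2, 5.2, 9.53 and 9.78 CPM in young and 76.4, 371 and 43.3 CPM in untreated old livers, a log2 change of 4.27 (SE 0.86, adjusted p in edgeR = 0.0437). Ccl5 read 0.613, 0.489, 1.24 and 1.25 CPM in young and 17.3, 75.8 and 6.46 CPM in old livers, a log2 change of 5.41 (SE 1.20, adjusted p in edgeR = 0.0448). Untreated 2 was the highest library for both, and for neither did the groups overlap. Groups without overlap were found for 10 of the 25 ligands, all higher in old mice, against 30.3% of all genes. Ccl4 rose by 4.57 (SE 1.05) and Ccl3 by 4.41 (SE 1.09). Cxcl1, a neutrophil attractant that hepatocytes make in the acute phase, read 8.04, 9.25, 4.19 and 3.66 CPM in young and 33.9, 24.5 and 63 CPM in old livers and rose by 2.82 (SE 0.66), with its highest value in untreated 3. Cxcl9 rose by 2.83 (SE 0.70), with 10.3 to 30.8 CPM in young and 58.8 to 156 CPM in old livers. The median log2 difference of the 25 ligands was 2.17, beside 0.03 over all genes.

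Liver untreated 2 stood apart in several ligands that did not pass. Cxcl13 read 22.4, 572 and 16.7 CPM in the old livers, Ccl8 2.93, 155 and 0.548 CPM and Ccl2 5.07, 46.9 and 2.05 CPM. In the same library the macrophage marker sum was 8186 CPM, against 2259 and 1238 CPM in the other old livers, and the hepatocyte sum was 50400 CPM, against at least 101800 CPM in every other liver. The number of ligands called was 0 without young 4, the library with kidney and muscle transcripts, and also 0 without any 1 of the other young livers, without untreated 1 or without induced 3, 2 without untreated 2 and 14 without untreated 3. Of 12 macrophage markers 6 rose in liver and of 12 neutrophil markers 7 rose, and their part in the result was not tested.

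In skeletal muscle, 3 of 21 tested ligands rose, 1 fell and 17 did not pass, where 16.1% of all genes were called (8.14% higher, 7.91% lower). The count of ligands was thus near the share of all genes. Groups without overlap were found for 4 ligands higher and 1 lower in old mice, a smaller share than the 28.8% of all genes. Ccl5 read 0.16, 0.0553, 0.297 and 0.157 CPM in young and 1.58, 0.673 and 1.1 CPM in untreated old muscle, a log2 change of 2.79 (SE 0.47, adjusted p in edgeR = 0.0113) with no overlap. Ccl24, the eosinophil attractant of alternatively activated macrophages, read 7.02, 2.93, 3.4 and 3.47 CPM in young and 1.08, 0.421 and 0.887 CPM in old muscle, a log2 change of -2.40 (SE 0.44, adjusted p in edgeR = 0.0131). Every young library was above every old one. Ccl12 rose by 2.33 (SE 0.62) and Ccl8 by 3.15 (SE 0.92). The median of the 21 ligands was 0.18, beside -0.02 over all genes. For Ccl8 the groups overlapped, at 4.25, 0.636, 0.729 and 0.47 CPM in young and 30.9, 2.02 and 8.45 CPM in old muscle. None of 12 macrophage markers rose and 1 fell, with sums of 215 to 498 CPM in young and 211 to 424 CPM in untreated old muscle. Of 6 tested neutrophil markers 3 rose, with sums of 0.522 to 2.18 CPM in young and 5.24 to 14.9 CPM in untreated old muscle. Of 4 adipocyte markers 3 fell, with sums of 96.8 to 1573 CPM in young and 1.35 to 43.6 CPM in old muscle. Neither pair of sums overlapped, and their part in the result was not tested. The number of ligands called was 0 without untreated 3 and 2 without young 1, without young 4 or without induced 3. It was also 0 without young 1 and 2 together, the muscle libraries with kidney transcripts (70.2 and 43.6 CPM of 6 kidney markers, against at most 1.47 in the others).

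In spleen no ligand of 27 passed in edgeR's quasi-likelihood test, where 0.274% of all genes did (0.15% higher, 0.124% lower). At an unadjusted p under 0.05 there were 17 of 27 ligands, beside 5460 of all 19356 genes. DESeq2 called 15 ligands, all higher. The share of all genes that DESeq2 called is not given here, and the edgeR share does not stand in for it. The groups did not overlap for 13 of 27 ligands, 12 higher and 1 lower, against 35.2% of all genes. The median log2 difference of the 27 was 1.68, beside 0.04 over all genes. The 3 smallest p values belonged to Ccl8, Ccl12 and Ccl5. Ccl5 read 104, 97.3, 88.5 and 92.2 CPM in young and 752, 293 and 315 CPM in untreated old spleens, a log2 difference of 2.35 (SE 0.57, adjusted p in edgeR = 0.0751), and Ccl12 differed by 3.86 (SE 0.87, adjusted p in edgeR = 0.0711). Neither pair of groups overlapped. Cxcl9 read 88, 63.2, 70.5 and 48.6 CPM in young and 1785, 212 and 225 CPM in untreated old spleens, so that untreated 1 was far above the others, with a log2 difference of 3.23 (SE 0.85, adjusted p in edgeR = 0.0833). Ccl8 read 2.29, 0.564, 2.59 and 0.298 CPM in young and 119.5, 52 and 32.6 CPM in old spleens, a difference of 5.64 (SE 1.08, adjusted p in edgeR = 0.0568). The count of calls was 8 without induced 1 and 5 without induced 2, libraries that enter this comparison only through the shared spread.

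The homeostatic ligands of the spleen did not pass. Cxcl12 read 752, 703, 549.5 and 1273 CPM in young and 284, 242 and 403 CPM in untreated old spleens, separate groups with a log2 difference of -1.38 (SE 0.59, adjusted p in edgeR = 0.169). Cxcl13 read 231, 228, 174 and 284 CPM in young and 222, 238 and 149 CPM in old spleens, overlapping groups. The B cell marker sum was 4805 to 6033 CPM in young and 1968 to 2565 CPM in untreated old spleens, and the macrophage sum 4422 to 4926 and 6170 to 14640 CPM. Ccl22, a dendritic cell ligand of CCR4, read 1.69, 278 and 4.69 CPM in the old spleens, and untreated 2, its highest, was the library with pancreas transcripts.

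In skin no ligand of 24 passed, and neither did any gene of the tissue (0%). At an unadjusted p under 0.05 there were 8 of 24 ligands, beside 3064 of all 19188 genes. DESeq2 called 7 ligands, 3 higher and 4 lower, and its share of all genes is not given here. Simulated 4-fold changes were recovered in 9% of cases in skin against 87% in lung. They were planted in a small set of genes that left out the lowest levels. The shares thus do not give the detection of low ligands or of changes spread over many genes. Ccl24 read 19.8, 12.1, 39.7 and 39.5 CPM in young and 1.59, 0.324 and 8.48 CPM in untreated old skin, a log2 difference of -3.22 (SE 0.60, adjusted p in edgeR = 0.203). Cxcl9 read 3.85, 2.13, 6.66 and 2.2 CPM in young and 14.9, 25 and 37.6 CPM in old skin, a difference of 2.85 (SE 0.53, adjusted p in edgeR = 0.203). Ccl11 read 78.8, 48, 89.9 and 109 CPM in young and 13.9, 19.9 and 43 CPM in old skin, a difference of -1.62 (SE 0.31, adjusted p in edgeR = 0.203). For each of these 3 the groups did not overlap, and they were the only such ligands of the 24 (21.3% of all genes). Ccl24 was lower in old mice in both skin and muscle, as a value in skin and as a call in muscle. The median log2 difference of the 24 ligands in skin was 0.53, beside 0.07 over all genes. Untreated 3 read 35.7 CPM of Ccl5, and its B cell and hepatocyte marker sums (243 and 8975 CPM) were also the highest of the old skins. Macrophage marker sums were 317, 408 and 2240 CPM in the untreated old and 1363 to 2778 CPM in the young skins.

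**Figure D3:**
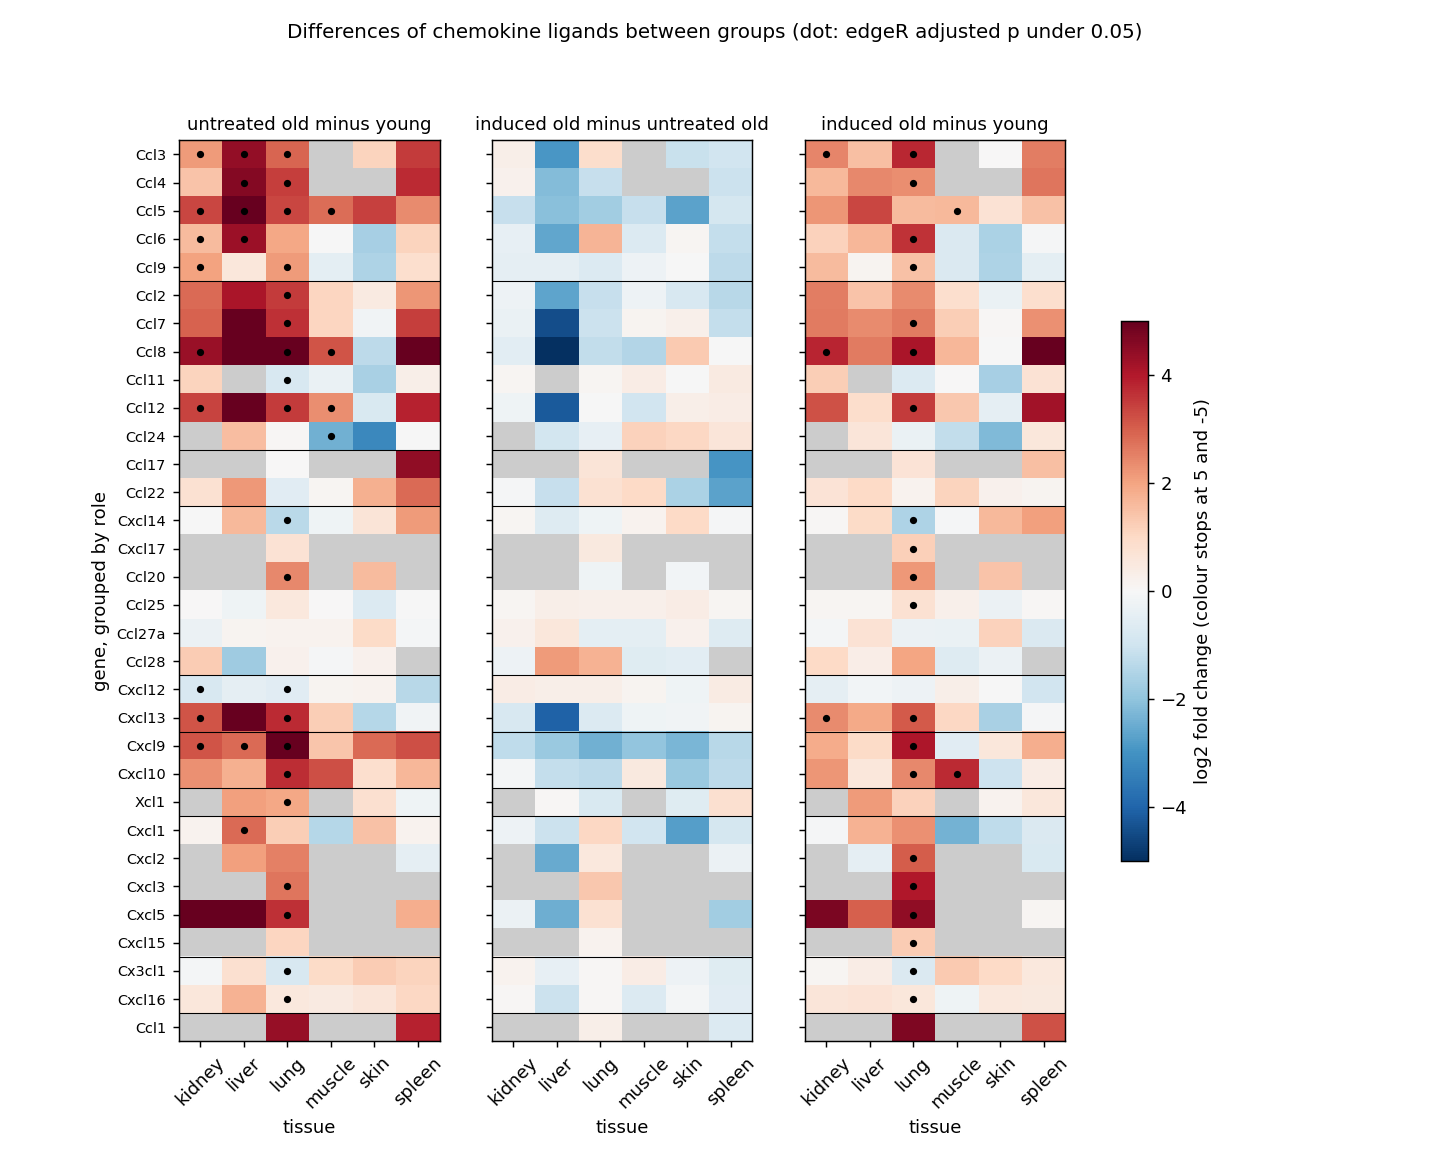
Log2 differences of each chemokine ligand in the 6 tissues for age (untreated old minus young), induction (induced minus untreated old) and induced old minus young, from edgeR, with called values marked and untested ones in grey. The age panel holds most of its called values in lung (20 of 32 ligands), kidney (9 of 23) and liver (6 of 25), and the induction panel holds none.

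Whether the age difference itself varied between tissues was tested in 1 fit of all 60 libraries. It varied for 15 of 32 ligands, against 37.1% of all genes, so the share of ligands was not far from that of all genes. The sample numbers in the titles run in 10 blocks of 6, each with 1 library per tissue of the same group and sex. A block may be 1 animal, which the labels do not say. With these blocks in the fit 13 of the 15 passed, and Ccl25 (edgeR adjusted p = 0.0557) and Cxcl15 (edgeR adjusted p = 0.107) did not. Without untreated 2 of every tissue the count was 6, and without young 4 of every tissue 9. Ccl6 differed between tissues (edgeR adjusted p = 5.41e-05), with age estimates of 4.27 (SE 0.86) in liver, 1.57 (SE 0.30) in kidney and -1.68 (SE 0.48) in skin. Ccl9 followed (edgeR adjusted p = 0.000145) with 2.14 (SE 0.46) in lung and -1.55 (SE 0.46) in skin. Ccl24 (edgeR adjusted p = 0.00192) had estimates of 1.55 (SE 0.41) in liver and -2.40 (SE 0.44) in muscle. Ccl5, the ligand called in most tissues (kidney, liver, lung and muscle), was not among the 15, nor was Cxcl10, with higher estimates in old mice in 6 of 6 tissues. The same direction in every tissue was seen for Ccl2, Ccl5, Cxcl9, Cxcl10 and Cxcl16.

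The second comparison set induced against untreated old mice. No ligand passed in any of the 6 tissues in edgeR's test, and of all genes tested 0% passed in kidney, liver, lung and skin, 0.00593% in muscle and 0.00517% in spleen. At an unadjusted p under 0.05 there were 9 ligands in liver, 4 each in lung, skin and spleen, 2 in muscle and 0 in kidney. Of all genes these were 3054 of 16941 in liver, 1474 of 19630 in lung and 1157 of 19188 in skin. They were 2455 of 19356 in spleen, 1071 of 16851 in muscle and 1068 of 18878 in kidney. The spleen count of ligands was thus near the share of all genes, and the kidney count below it. DESeq2 called 2 in liver, 2 in skin and 1 in spleen, all lower in induced mice, and 0 in the other tissues. Its shares of all genes are not given here. The estimates were lower in induced mice for 20 of 25 ligands in liver, 20 of 27 in spleen and 16 of 24 in skin. They were lower for 14 of 23 in kidney, 12 of 21 in muscle and 15 of 32 in lung. Of all genes 51.2% in skin and between 47.4% and 49.9% in the other tissues had higher estimates in induced mice. The median log2 difference of the ligands was -1.19 in liver, -0.67 in spleen, -0.25 in muscle, -0.22 in kidney, -0.17 in skin and 0.06 in lung. Over all genes the median lay between -0.03 and 0.01. The first comparison uses the same 3 untreated old libraries. A high untreated library thus raises the age estimate and lowers the induction estimate of the same gene.

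The ligands with the smallest p values show the spread behind these estimates. In liver Ccl6 read 42.6, 11.1 and 24.2 CPM in induced and 76.4, 371 and 43.3 CPM in untreated old mice, a log2 difference of -2.59 (SE 0.83, adjusted p in edgeR = 0.274). In skin Cxcl9 read 7.87, 2.52 and 4.75 CPM in induced and 14.9, 25 and 37.6 CPM in untreated old mice, a difference of -2.28 (SE 0.58, adjusted p in edgeR = 0.789). In spleen Ccl9 read 8.32, 16 and 12.9 CPM in induced and 23.8, 36.7 and 32.6 CPM in untreated old mice, a difference of -1.32 (SE 0.28, adjusted p in edgeR = 0.212). In each of these 3 cases all induced libraries lay below all untreated ones and the difference did not pass. Groups without overlap were found for 2 of 25 ligands in liver, 3 of 24 in skin and 3 of 27 in spleen. The shares of all genes were 18.4%, 12.3% and 12.1%, so in these 3 tissues the number was near or below that of all genes. In muscle 2 of 21 ligands were higher and 3 lower without overlap, a larger share than the 9.35% of all genes. In kidney and lung there were 0, against 6.26% and 7.78% of all genes. The highest Ccl6 value in liver lay in untreated 2, with its high macrophage sum. The highest Cxcl9 value in skin lay in untreated 3, with its hepatocyte transcripts. Cxcl9 in lung read 25.6, 2.27 and 38.2 CPM in induced 1 to 3, against 180.3, 202 and 31.7 CPM in untreated 1 to 3, an overlap, and a log2 difference of -2.40 (SE 1.04, adjusted p in edgeR = 0.656). Ccl6 in lung read 2596, 294 and 4102 CPM in induced and 297, 697 and 1098 CPM in untreated old mice, so that 2 induced libraries were above all untreated ones and induced 2 was below them. Its difference was 1.69 (SE 0.69, adjusted p in edgeR = 0.646). Induced 2 was the lowest of the induced libraries in lung for Cxcl9, Ccl8, Ccl5 and Ccl6 alike. Whether the induction effect varied between tissues was tested in the fit of all libraries: 0 of 32 ligands passed, 2 did without untreated 3 of every tissue, and 0.293% of all genes passed.

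The third comparison set induced old against young mice, with the same young libraries as the first, so the pair share their controls and their values are given side by side. In lung, 18 of 32 ligands rose, 2 fell and 12 did not pass, where 22.4% of all genes were called (10.5% higher, 12% lower). Ccl6 rose by 3.63 (SE 0.67, adjusted p in edgeR = 0.00834), with 167 to 196 CPM in young and 2596, 294 and 4102 CPM in induced lungs, and its age estimate was 1.94. Cxcl3 rose by 4.02 (SE 0.63, adjusted p in edgeR = 0.00561), beside an age estimate of 2.68, and read 2.62, 1.2 and 2.67 CPM in the induced lungs. Cxcl14 fell in both comparisons, here with a log2 change of -1.55 (SE 0.26, adjusted p in edgeR = 0.00666), and read 41.2, 44.5 and 54.2 CPM in induced lungs. These 3 calls held whichever library was left out.

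The interferon-induced and monocyte-attracting ligands also rose in induced lungs. Cxcl9 rose by 4.04 (SE 0.97) and Cxcl10 by 2.41 (SE 0.57), beside 6.44 and 3.71 for age. Ccl8 rose by 4.07 (SE 0.86), Ccl12 by 3.51 (SE 0.63), Ccl7 by 2.59 (SE 0.80), Ccl4 by 2.32 (SE 0.70) and Ccl9 by 1.45 (SE 0.45). The difference between the 2 estimates is the induction comparison, in which none of them passed. Ccl3 rose by 3.78 (SE 0.72), Cxcl5 by 4.44 (SE 0.97), Cxcl2, a neutrophil attractant of macrophages, by 3.03 (SE 0.88), and Cxcl13 by 3.05 (SE 0.76).

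Epithelial ligands were part of the induced lung calls. Cxcl15 rose by 1.25 (SE 0.33, adjusted p in edgeR = 0.0282) and Cxcl17 by 1.18 (SE 0.32, adjusted p in edgeR = 0.0295), with 122, 64.8 and 81.1 CPM in induced and 36.5 to 46 CPM in young lungs. Ccl25, the thymic and gut ligand of CCR9, rose by 0.75 (SE 0.19), Ccl20 by 2.17 (SE 0.52) and Cxcl16 by 0.57 (SE 0.14), while Cx3cl1 fell by 0.74 (SE 0.21). The number of ligands called was 4 without induced 3, 6 without induced 1, 7 without young 4, 8 without young 1, 8 without young 2 and 11 without young 3. The macrophage marker sum was 12550 to 25200 CPM in induced lungs and the neutrophil sum 246 to 1157 CPM, and their part in the result was not tested.

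**Figure D4:**
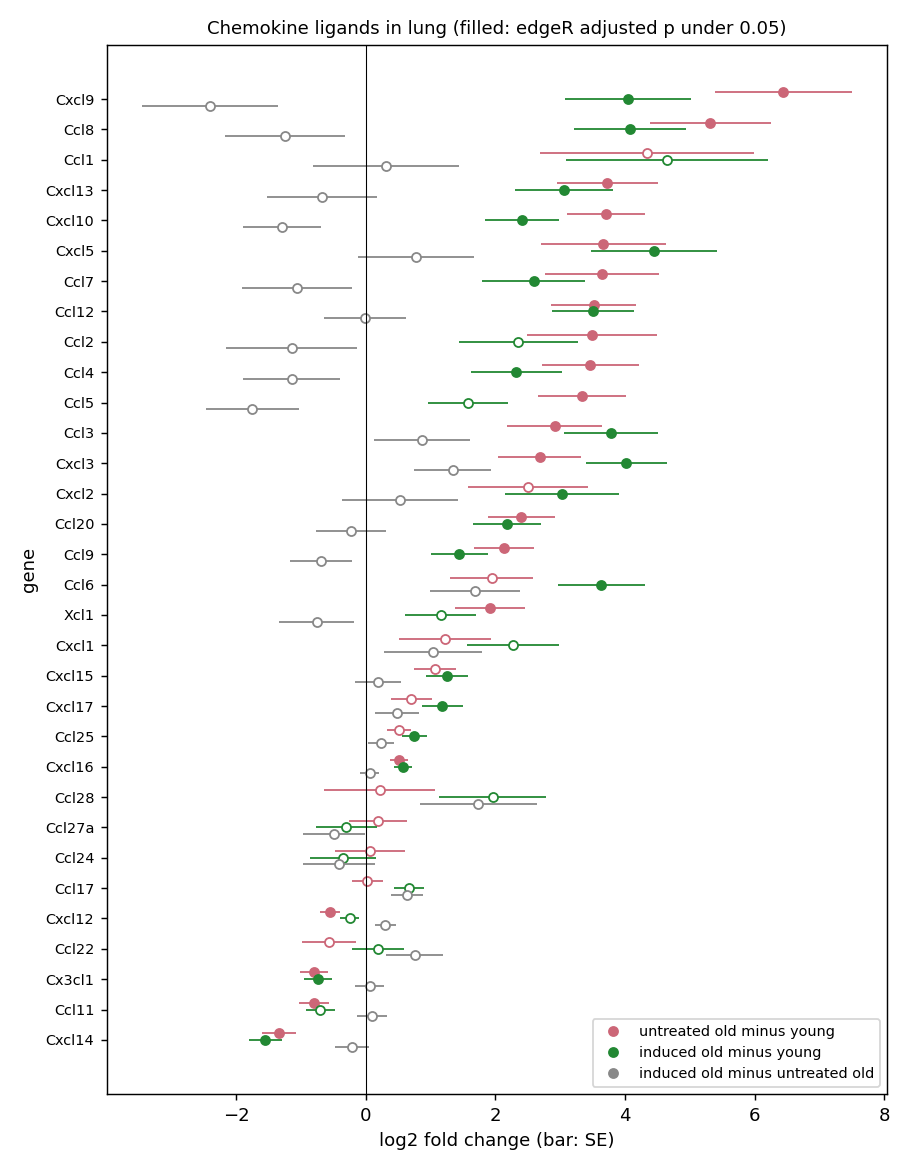
Log2 differences with standard errors of the lung chemokine ligands for age (untreated old minus young), for induced old minus young and, in grey, for induced old minus untreated old. Age and induced old minus young share the 4 young libraries. Cxcl9 lies at 6.44 for age and 4.04 for induced old, and Ccl6 at 1.94 and 3.63.

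In kidney, 3 ligands of 23 rose in induced old against young mice and 20 did not pass, where 2.61% of all genes were called (1.3% higher, 1.31% lower). Ccl8 rose by 3.80 (SE 0.75), Ccl3 by 2.43 (SE 0.45) and Cxcl13 by 2.36 (SE 0.45). The count was 0 without young 1, 2 or 4, 1 without young 3 and 1 without induced 1. In muscle, 2 of 21 rose and 19 did not pass, against 19% of all genes (9.74% higher, 9.28% lower). Cxcl10 rose by 3.72 (SE 0.99, adjusted p in edgeR = 0.0325), with 0.0261 to 1.05 CPM in young and 2.13, 14.4 and 2.99 CPM in induced muscle and induced 2 the highest, and Ccl5 rose by 1.63 (SE 0.49). The muscle count was 0 without young 1, induced 2 or induced 3, 1 without young 4, induced 1 or untreated 3, 4 without untreated 2 and 5 without young 3. No ligand passed in liver, skin or spleen, where 0.502%, 0% and 0% of all genes did. At an unadjusted p under 0.05 there were 3 of 25 ligands in liver, 6 of 24 in skin and 6 of 27 in spleen. Of all genes these were 2769 of 16941 in liver, 3030 of 19188 in skin and 2495 of 19356 in spleen. The liver count of ligands was thus below the share of all genes. DESeq2 called 1, 5 and 3 ligands in liver, skin and spleen, and its shares of all genes are not given here.

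Receptors were read from a list of 23 chemokine receptors, including the atypical, scavenging ones. With age, 4 of 19 tested rose in kidney, 8 of 20 in liver, 7 of 23 in lung with 3 falling, 3 of 17 in muscle with 1 falling, and 0 in skin and spleen. Of all genes 6.12% were called in kidney, 7.91% in liver, 17.7% in lung and 16.1% in muscle, so the muscle count of receptors was near that of all genes. In kidney Ccr3, an eosinophil receptor, rose by 4.29 (SE 0.69) on the log2 scale, Ccr1 by 2.04 (SE 0.37) and Ccr2, the monocyte receptor, by 1.71 (SE 0.37). In liver Cxcr2, the neutrophil receptor, rose by 3.97 (SE 0.75), Ccr10 by 2.05 (SE 0.43), Ccr2 by 3.63 (SE 0.78) and Ccr1 by 6.93 (SE 1.58). Lung Cxcr6, a receptor of resident memory T cells, rose by 2.20 (SE 0.32), Ccr1 by 2.30 (SE 0.37) and Cxcr2 by 1.92 (SE 0.35), and the scavenger Ackr4 changed by -2.03 (SE 0.28). Muscle Cxcr2 rose by 3.33 (SE 0.78), Cx3cr1 by 2.04 (SE 0.53) and Ackr1 by 0.85 (SE 0.24), and Ackr3, a scavenger of Cxcl12, changed by -0.79 (SE 0.13). Cxcr3, the receptor of Cxcl9 and Cxcl10, rose in lung by 2.09 (SE 0.43) and in liver by 2.92 (SE 0.72). No receptor passed with induction in any tissue.

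A list of 17 inducing cytokines and transducers was read beside these same shares of all genes called (17.7% in lung, of which 8.37% higher, 7.91% in liver, 6.12% in kidney and 16.1% in muscle). With age, 3 of 15 tested rose in lung, among them Ifng, the inducer of Cxcl9, by 3.48 (SE 0.91) and Il1b by 1.82 (SE 0.44). Tnf rose in liver by 4.45 (SE 1.10) and Irf1 by 1.51 (SE 0.27), 2 of 12 tested. Ltb rose in kidney by 2.12 (SE 0.39) and Irf1 in muscle by 1.14 (SE 0.34), each 1 of 10 tested. In lung, kidney and muscle these counts were near the shares of all genes. No gene of either list passed in skin or spleen. Pf4 and Ppbp, platelet ligands whose symbols fall outside the naming rule, were read beside the members. Ppbp rose with age in lung by 1.65 (SE 0.45, adjusted p in edgeR = 0.0378) and in liver by 4.57 (SE 1.08, adjusted p in edgeR = 0.0462), and Pf4 in lung by 0.99 (SE 0.24, adjusted p in edgeR = 0.0275).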

How the data were processed

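RNeasy-extracted RNA was made into libraries by a stranded total RNA protocol (per the labels). The authors deposited raw counts per Ensembl gene, whole numbers without normalization, per the file headers and their values. The submitters' processing notes name GRCm38. How reads were aligned and counted, with the strand setting and gene models, is not given in the sources used here. Totals were 16.7 to 50.7 M counts, and a floor of 3 counts was 0.0592 to 0.18 CPM, which covers counting error only. Of 52636 identifiers 52403 matched an annotation entry, and the rest held 0.0231% of counts. All replicate pairs differed beyond sampling noise (lowest chi-square per degree of freedom 9.48).

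Each tissue was fitted on its 10 libraries in edgeR 4.0.16 (R 4.3.3) with filterByExpr, TMM scaling and a two-sided quasi-likelihood test with sex as covariate, adjusted over all genes, and called under 0.05. Standard errors are the estimate divided by the square root of F. Tissue differences used 1 fit of all 60 libraries. Levels per kilobase used the union of exons. Tests were checked on simulated counts with 2-fold and 4-fold changes, planted in a small set of genes that left out the lowest levels. Alternatives were DESeq2 1.42.0, its size factors, no filter, no sex term, only the compared groups, libraries left out and, added after the data were seen, blocks of sample numbers. Promoters come from RefSeq and figures from Python 3.11.15.

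Members, gene lists and alternatives were chosen with earlier results of these data known. Genes were named by rule: members called anywhere, the 3 highest per tissue in young mice, the 3 smallest p values where none was called, the cassette factors, up to 4 receptors per tissue, Pf4 and Ppbp. Ccl22, Ccl28 and the further receptor Cxcr3 were named after their values were seen. Some list genes and motifs are not reported here.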

Additional observations from a re-analysis of the deposited data

Results flagged for a closer look

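In 131 young groups of 4 libraries, 15 had a highest or lowest library set apart by Dixon's test at 0.05. That test compares the gap to the nearest neighbour with the group's range. It flags about 1 in 20 groups if values are normally distributed and groups are independent. Many levels here are low and the groups share libraries, so the 15 are not read as an excess. Young 3 of liver was the high library for 5 ligands: Ccl2 at 2.65 CPM, Cxcl10 at 7.35, Cxcl13 at 9.43, Cxcl16 at 13.4 and Cxcl5 at 0.201 CPM. In the same library the macrophage marker sum was 848 CPM, against at most 507 CPM in the other young livers. In kidney, Ccl8 was high in young 1 (0.454 CPM), Cxcl13 in young 3 (0.95) and Cxcl5 in young 4 (0.0281). This Cxcl5 value is below the floor of 3 counts. For Cxcl5 in kidney and liver the other young libraries read 0, so the gap equals the range whatever the value. In muscle, young 1 was high for Ccl24 (7.02 CPM) and Ccl8 (4.25), and young 2 for Cxcl1 (3.93). In spleen, Ccl6 was high in young 4 (54.2 CPM) and Cxcl1 in young 2 (2.07). In lung, Cxcl15 was high in young 4 (1263 CPM), and in skin Ccl2 was low in young 4 (0.942 CPM). No cause was tested.

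The age difference varied between the 6 tissues for 15 ligands in the fit of all libraries, where 37.1% of all genes passed. The share of ligands was not far from that of all genes. Among the monocyte and eosinophil attractants the edgeR adjusted p was 0.00571 for Ccl11, 0.0215 for Ccl12, 0.00192 for Ccl24, 0.00792 for Ccl7 and 0.00407 for Ccl8. It was 5.41e-05 for Ccl6 and 0.000145 for Ccl9 among the CCR1 ligands. Homeostatic ligands gave 0.0432 for Cxcl12 and 0.00231 for Cxcl13, and the epithelial and membrane-bound ligands gave 0.0492 for Ccl25, 0.00799 for Cxcl14 and 0.0204 for Cx3cl1. The neutrophil attractants gave 0.0235 for Cxcl1 and 0.0426 for Cxcl15, and the interferon-induced Cxcl9 gave 0.0207, each an adjusted p of that edgeR test. This fit treats libraries of different tissues as independent. With blocks of 6 sample numbers in it, 13 of the 15 passed.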

How the results depend on the processing

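Counts of called ligands under other choices were as follows. With DESeq2, age gave 14 in kidney, 16 in liver, 7 in skin and 15 in spleen, induced against young 11 in kidney, 1 in liver, 6 in muscle, 5 in skin and 3 in spleen, and induction 2 in liver, 2 in skin and 1 in spleen. Without the low-count filter, age gave 17 in kidney, 10 in liver and 2 in spleen, induced against young 18 in kidney and 7 in muscle, and induction 2 in kidney. Without the sex term, age gave 2 in kidney, 12 in liver and 7 in spleen, and induced against young 0 in kidney. With only the compared groups, age gave 2 in liver and 9 in spleen. Without libraries that held transcripts of another tissue, age gave 3 in lung, 0 in liver and 0 in muscle, and induced against young 1 in muscle. The cause of these shifts was not tested, and the fits without libraries hold fewer samples. Shares of all genes under these choices are not given here.

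Leaving out 1 library at a time, age gave 5 to 22 ligands in lung, 0 to 12 in kidney, 0 to 8 in spleen, 0 to 14 in liver and 0 to 5 in muscle. Induced against young gave 0 to 3 in kidney, 4 to 25 in lung, 0 to 5 in muscle and 0 to 2 in spleen. The test of tissue differences gave 6 to 18 for age and 0 to 2 for induction. For the 64 single results called, 676 of 1012 alternative values kept the call, 336 lost it and 0 changed sign, and 8 of the 64 kept it whichever library was left out. Of 183 young levels compared without TMM scaling, 2 moved beyond the spread. No paired analysis was possible because the replicate numbers are record order, and the blocks of 6 sample numbers in the titles lie within 1 group each, so neither pairs the groups compared. A replicate block of these 6 libraries in the test of tissue differences, added after the data were seen, gave 13 ligands for age and 0 for induction. Simulated 4-fold age changes were recovered in 100% of cases in kidney, 97% in muscle, 87% in lung, 72% in liver, 64% in spleen and 9% in skin. The planted genes left out the lowest levels, so these shares do not hold for low ligands.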
